A study of Brassica napus with 48 samples.

Results

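The genes described here are the 200 genes of Brassica napus seeds with the highest levels under shading relative to control at both 7 and 14 days after flowering (DAF) in the hybrid Lumen, out of 101040 genes measured. They were chosen by their readout. TPM stands for transcripts per 1000000 transcripts. Of 29160 genes whose mean over the 24 Lumen libraries reached 5 TPM, 857 (2.94%) had a mean log2(TPM + 0.5) at least 0.5 higher in shaded than in control libraries at 7 DAF and again at 14 DAF. A given list of 8 genes was set aside, 4 of which were among the 857 and 2 of which would have entered, so that 853 remained, and the 200 with the highest smaller difference of both times were kept. The 8 include genes of the NAC, homeobox and bZIP families, so the numbers of listed genes from these families leave them out. The choice used the shading differences in Lumen at both times, averaged over sowing dates, so these are given as a description without a test. Their difference between sowing dates was not used and was tested. The libraries labelled Solar, the other hybrid, took no part in the choice.

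Seeds of 2 spring rapeseed hybrids, Lumen and Solar, were sampled at 7 and 14 DAF from field plots of an optimal and a late sowing date. Control plots were left untouched. Shaded plots stood under black nets, which intercepted 75% of the radiation, from the start of flowering until 15 DAF. The study describes this as a reduced source–sink (S–S) ratio, and reports fewer but heavier seeds under such shading. Each of the 16 groups of genotype, sowing date, treatment and time had 3 libraries, and each library pooled the seeds of 25 siliques from each of 5 plants of a plot. The treatments were laid out as split plots in 3 replicates, and no other allele or agent distinguishes the groups.

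Seeds fill with sucrose that is made in leaves and silique walls and unloaded through the seed coat, so that shade during flowering can limit the carbon a seed receives. In Arabidopsis, carbon shortage and ageing raise NAC transcription factors that drive senescence, HD-Zip class I factors hold buds in dormancy through abscisic acid, and several AP2/ERF factors act in the redox and jasmonate responses. Rapeseed is an allotetraploid with A and C subgenomes, so that most Arabidopsis genes have several rapeseed copies, and reads of near-identical copies are shared between them in the counting.

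Library sums of the normalized TPM ran from 908993 to 1219379. Genotype was checked with 47 genes that mark Solar and 51 that mark Lumen in the late-sown 14 DAF libraries, 1 of which is among the 200 genes. Solar marker genes made up at most 1.69% of the marker signal in Lumen libraries, but of the 18 libraries labelled Solar outside the late-sown 14 DAF groups, 2 held under 5%, 11 between 10.9% and 87.0%, and 5 over 95%. The 2 under 5% were replicate 2 of the control and of the shaded plots of the optimal sowing at 7 DAF, which were also the most alike of all 1128 pairs of libraries, with a median absolute log2 difference of 0.0663, although they carry different treatment labels. The closest libraries within any group differed by 0.0978. The main counts on libraries labelled Solar that include the pair are therefore given with and without it. Those by gene family or list, by number of combinations, at an unadjusted p and in the split by call are given only with it. The late-sown 14 DAF libraries are given on their own. Without the pair, the shading differences over all Solar-labelled libraries kept their direction and their side of the threshold in each of 34 named genes checked. The part that the other mixed libraries have in the results was not tested.

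In Lumen, the 200 genes were low in control seeds and higher under shading, most of all in the late sowing at 7 DAF and least in the late sowing at 14 DAF. Across control libraries the median gene stood at 2 to 8 TPM, and at 18 to 21 TPM under shading in the optimal sowing at 7 DAF. The late-sown shaded libraries at 7 DAF ranged more widely, from 15 to 67 TPM. At 14 DAF the median gene stood at 8.5 to 23 TPM in the shaded libraries of the optimal sowing but only 3.5 to 4.5 TPM in those of the late sowing, against 2 TPM in each late-sown control library. Shaded and control libraries of the same sowing date and time did not overlap in this median in any of the 4 Lumen combinations, a separation that the choice of the genes itself raises.

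**Figure D1:**
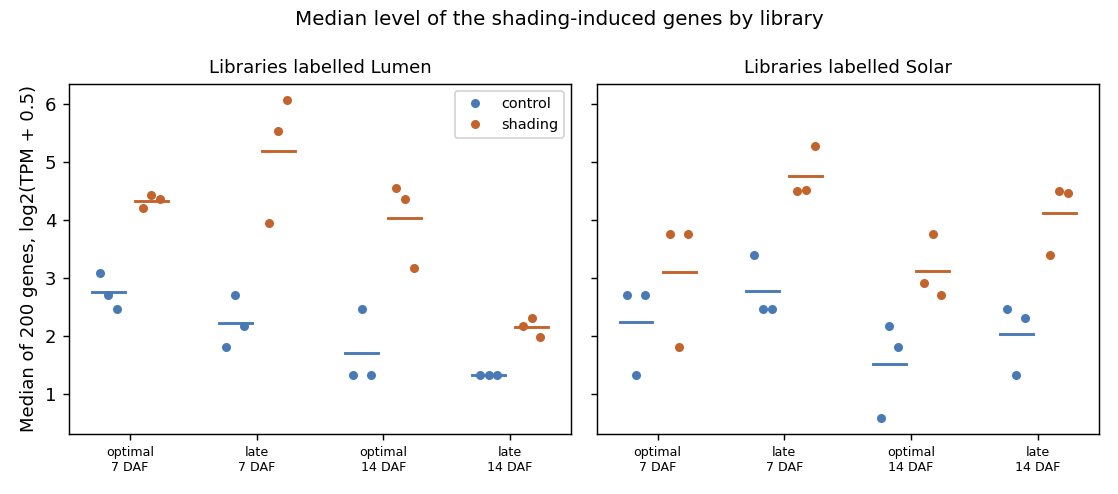
Median log2(TPM + 0.5) of the 200 genes in each library (points, 3 per group) with the group mean (lines), for control and shaded plots by sowing date and time, in libraries labelled Lumen (left) and Solar (right). The shaded Lumen libraries, which chose the genes, lie above their controls throughout. They do so least in the late sowing at 14 DAF, where the median was 3.5 to 4.5 TPM against 2 TPM. Among the Solar-labelled libraries shaded replicate 2 of the optimal sowing at 7 DAF lies with the controls.

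The difference at 7 DAF exceeded that at 14 DAF in 158 of the 200 genes. At 7 DAF the shading differences ran from 1.05 to 5.37 with a median of 2.03 on the log2 scale, and at 14 DAF from 1.05 to 2.96 with a median of 1.36. Differences of at least 2, a 4-fold change, were reached by 101 genes at 7 DAF and by 35 at 14 DAF. For these counts and the 158 genes above the share of all genes is not given. The limit of the list fell within a continuous range: the last genes inside it, BnaC01g01570D, BnaC03g16540D and BnaA01g18740D, had smaller differences of 1.0512, 1.0510 and 1.0507, and the first outside it, BnaA05g23420D, BnaA09g38310D and BnaC07g39450D, had 1.0503, 1.0493 and 1.0467.

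Split by sowing date, the late-sown plots carried the largest differences at 7 DAF and the smallest at 14 DAF. The median difference at 7 DAF was 1.47 in the optimal sowing, where 152 of the 200 genes were at least 1 higher on the log2 scale (1.77% of all genes at this level), and 2.62 in the late sowing, where 199 were (4.77%). At 14 DAF it was 2.25 in the optimal sowing with 197 such genes (3.97%), and 0.58 in the late sowing with 52 (0.796%). In the last combination 158 genes had a higher (47.6% of all genes at this level) and 29 a lower mean under shading. A higher mean in all 4 combinations was found for 157 of the 200, for which the share of all genes is not given. All 6 shaded libraries exceeded all 6 controls in 66 of the 200 genes at 7 DAF (1.04% of all genes at this level) and in 6 at 14 DAF (0.182%), counts that the choice of the genes itself raises.

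**Figure D2:**
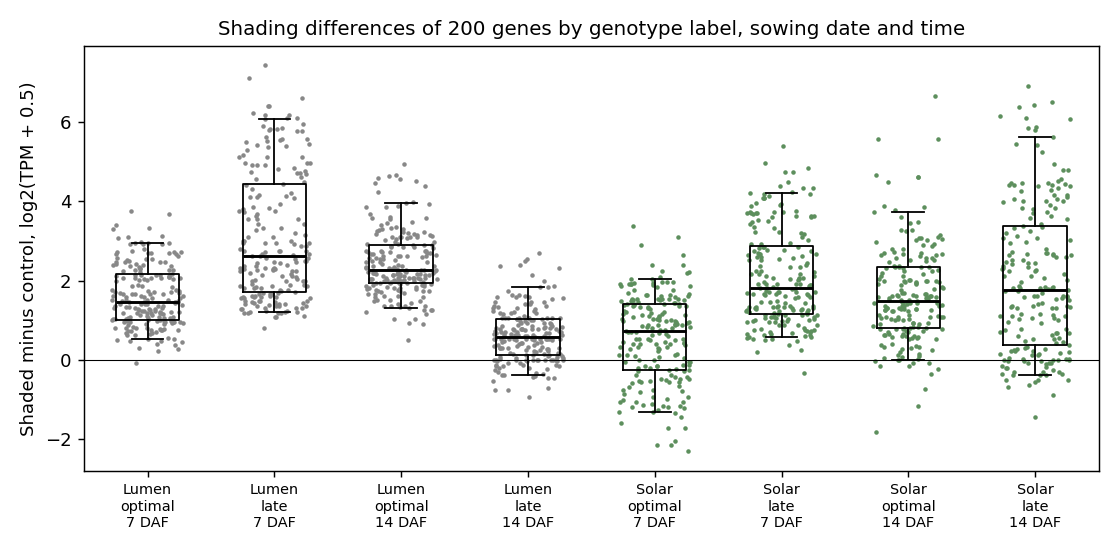
Shading differences, shaded minus control mean of log2(TPM + 0.5), of each of the 200 genes (points) by genotype label, sowing date and time. Boxes give the median and quartiles and whiskers the 5th and 95th percentiles; the Lumen medians of 1.47, 2.62, 2.25 and 0.58 come from the libraries that chose the genes, and the Solar medians were 0.72, 1.82, 1.48 and 1.75.

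The gene with the highest smaller difference was BnaA01g00580D, a member of the GH3 family, whose Arabidopsis enzymes conjugate hormones such as auxin to amino acids, and which corresponds to Arabidopsis AT1G59500. In Lumen at 7 DAF it measured 5, 3 and 4 TPM in controls and 37, 72 and 66 TPM under shading in the optimal sowing, and 3, 4 and 3 TPM against 40, 170 and 239 TPM in the late sowing. At 14 DAF the controls held 1, 2 and 2 TPM and the shaded libraries 80, 27 and 45 TPM in the optimal sowing. Late-sown seeds at 14 DAF held 1, 1 and 1 TPM in control and 4, 3 and 4 TPM in shaded plots. Shaded libraries lay above the controls in every combination, by a log2 difference of 4.32 at 7 DAF and 2.96 at 14 DAF, with the smallest absolute levels in the late sowing at 14 DAF. Another copy of the same Arabidopsis gene, BnaC01g01570D on the C subgenome, was at the bottom of the list with 2.56 and 1.05.

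Libraries labelled Solar, not used in the choice, gave BnaA01g00580D 6, 6 and 6 TPM in the optimal controls at 7 DAF and 83, 6 and 71 TPM under shading, the shaded library at 6 TPM being replicate 2 of the closest pair. The late-sown 14 DAF libraries held 2, 2 and 1 TPM in control and 13, 22 and 138 TPM under shading, without overlap. Over both times and sowing dates it was higher under shading in Solar-labelled libraries by 3.12 ± 0.40 (SE) on the log2(TPM + 0.5) scale (limma, Benjamini-Hochberg adjusted p = 5.3e-06), and BnaC01g01570D by 1.55 ± 0.28 (adjusted p = 0.00050).

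Of the 10 genes with the highest smaller difference, only BnaA01g00580D and BnaC01g01500D carry an annotation. BnaC01g01500D encodes a cytochrome P450, the family of haem enzymes that oxidise lipids, hormones and specialised metabolites, and BnaA01g00520D is another P450 of the list on the A subgenome. In Lumen at 7 DAF, BnaC01g01500D measured 1, 2 and 4 TPM in late-sown controls and 50, 446 and 443 TPM in late-sown shaded libraries, whereas the optimal sowing gave 37, 56 and 19 TPM against 82, 135 and 126 TPM. At 14 DAF the late-sown libraries held 0, 0 and 0 TPM in control and 2, 2 and 2 TPM under shading. The gene was highest in shaded late-sown seeds at 7 DAF and next to absent in late-sown Lumen seeds at 14 DAF. Solar-labelled late-sown seeds at 14 DAF instead held 9, 3 and 0 TPM in control and 79, 166 and 214 TPM under shading. Its Solar difference was 4.32 ± 0.47 (limma adjusted p = 4.8e-07) and that of BnaA01g00520D 3.78 ± 0.49 (adjusted p = 6.6e-06).

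The NAC family holds plant-specific transcription factors, and its 4 members here correspond to Arabidopsis NAP (BnaA07g28000D), NAC6, also called ORE1 (BnaC04g31690D), NAC3 (BnaC07g25530D) and NAC047 (BnaC01g40250D). NAP and ORE1 promote leaf senescence in Arabidopsis. All 4 are annotated only through the study's table of transcription factors from co-expression modules, which was drawn up on these samples, so that their number is not independent evidence of a direction. The same holds for both HB21, the ERF4, the AT3G16280 and the ZFP2 copies. In Lumen at 7 DAF, BnaC01g40250D held 14, 16 and 5 TPM in optimal controls and 36, 49 and 48 TPM under shading, and 0, 1 and 1 TPM against 19, 152 and 142 TPM in the late sowing. At 14 DAF it held 1, 4 and 5 TPM against 31, 9 and 15 TPM in the optimal sowing and was listed at 0 in all 6 late-sown Lumen libraries. Shaded and control libraries did not overlap in the 3 combinations in which the gene was detected. The other NAC genes followed the same layout in late-sown Lumen seeds at 14 DAF, where none exceeded 1 TPM in any library.

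Solar-labelled late-sown libraries at 14 DAF held BnaC01g40250D at 1, 0 and 0 TPM in control and at 15, 37 and 52 TPM under shading. BnaA07g28000D stood at 0, 1 and 1 TPM against 13, 18 and 42 TPM, and BnaC07g25530D at 1, 0 and 0 TPM against 3, 12 and 18 TPM. No shaded library overlapped a control in these 3 genes. Over both times and sowing dates the Solar differences of all 4 NAC genes passed the threshold, at 3.66 ± 0.38 for BnaC01g40250D (limma adjusted p = 2.5e-07), 3.34 ± 0.30 for BnaA07g28000D (adjusted p = 3.1e-08), 2.78 ± 0.33 for BnaC07g25530D (adjusted p = 1.7e-06) and 2.55 ± 0.33 for BnaC04g31690D (adjusted p = 6.8e-06). In the late-sown 14 DAF libraries alone, the first 3 passed with 5.44 ± 0.77, 4.40 ± 0.60 and 3.69 ± 0.67, and BnaC04g31690D gave 2.41 ± 0.66 (adjusted p = 0.046). Among the 32 other annotated NAC genes tested, 12 were higher under shading in Solar-labelled libraries and 0 lower, with a median difference of 0.71 against 0 over all genes, where 2.04% of all genes tested were called higher and 0.730% lower. Of these 32 genes, 18 are annotated only through the same table of transcription factors, and the other annotations come from the study's lists of regulated and co-expressed genes in these samples, so that this count is not independent evidence either.

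The HD-Zip class I homeodomain factors formed the next group, of 3 genes: BnaA01g01090D, corresponding to Arabidopsis HB40, and BnaCnng58720D and BnaA09g09650D, both corresponding to HB21. In Arabidopsis HB21 and HB40 act in axillary buds, where they raise abscisic acid. BnaA09g09650D, the most abundant of them, measured 44, 45 and 29 TPM in optimal Lumen controls at 7 DAF and 124, 237 and 228 TPM under shading, and 9, 8 and 7 TPM against 74, 351 and 295 TPM in the late sowing. At 14 DAF it held 12, 12 and 16 TPM against 90, 42 and 49 TPM in the optimal sowing, and 2, 4 and 5 TPM against 4, 8 and 4 TPM in the late sowing. The groups overlapped only in the late sowing at 14 DAF. There the Solar-labelled libraries held 11, 12 and 6 TPM in control and 37, 70 and 119 TPM under shading. The Solar differences were 2.30 ± 0.26 for BnaA09g09650D (limma adjusted p = 7.5e-07), 2.60 ± 0.29 for BnaCnng58720D (adjusted p = 5.1e-07) and 2.85 ± 0.44 for BnaA01g01090D (adjusted p = 5.6e-05). All 3 also passed in the late-sown 14 DAF libraries alone.

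The only sugar transporter among the 38 annotated members was BnaA07g23350D, a sucrose/H+ symporter corresponding to Arabidopsis SUC5, which acts in the endosperm. Its levels were low: in Lumen at 7 DAF 2, 2 and 1 TPM in optimal controls against 14, 15 and 18 TPM under shading, and 0, 0 and 1 TPM against 3, 25 and 23 TPM in the late sowing. In late-sown Lumen seeds at 14 DAF it was listed at 0 in all controls and at 0, 0 and 1 TPM under shading. Solar-labelled late-sown seeds at 14 DAF held 0, 0 and 0 TPM in control and 5, 6 and 17 TPM under shading. The difference over all Solar-labelled libraries was 2.76 ± 0.36 (limma adjusted p = 8.5e-06). Of the 17 other sugar transporters tested, 1 was higher and 0 lower, with a median of -0.07.

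The AP2/ERF family gave the largest group of annotated genes, 7. BnaC07g45030D, BnaA01g02720D and BnaA08g11220D correspond to Arabidopsis RRTF1, a redox-responsive factor, BnaC06g35730D and BnaA07g21980D to ORA47, a regulator of jasmonate synthesis, BnaCnng67070D to ERF4, a repressor, and BnaC05g37110D to AT3G16280. In the optimal sowing at 14 DAF, BnaC06g35730D held 2, 21 and 0 TPM in Lumen controls and 103, 256 and 29 TPM under shading. In the late sowing at 14 DAF it held 22, 98 and 22 TPM against 37, 34 and 24 TPM. The shaded libraries were above the controls in the optimal sowing but within their range in the late sowing.

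In Solar-labelled seeds the RRTF1 and ORA47 copies varied widely between libraries of a group, and none passed the test of shading. In the optimal sowing at 14 DAF, BnaC06g35730D measured 2, 125 and 12 TPM in controls and 7, 153 and 6 TPM under shading, and BnaC07g45030D 0, 47 and 2 TPM against 3, 135 and 3 TPM. Replicate 2 was high in control and shaded plots alike for both genes. Of the marker signal, 10.9% in that control library and 68.1% in that shaded library was Solar, and the part of this in the result was not tested. Over all Solar-labelled libraries BnaC07g45030D differed by 0.63 ± 0.70 (limma adjusted p = 0.68), BnaA01g02720D by -0.09 ± 0.63 (adjusted p = 0.97), BnaC06g35730D by 0.22 ± 0.60 (adjusted p = 0.89) and BnaA07g21980D by -0.14 ± 0.43 (adjusted p = 0.91). Each of these 4 differences changed sign when a replicate number was left out. BnaCnng67070D, the ERF4 copy, was higher by 1.41 ± 0.34 (adjusted p = 0.00815, or 0.0104 with the replicate number as a block), and with BnaC05g37110D it made up the 2 of 7 AP2/ERF members past the threshold. Among the 33 other AP2/ERF genes tested, 2 were higher and 0 lower, with a median of 0.25.

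**Figure D3:**
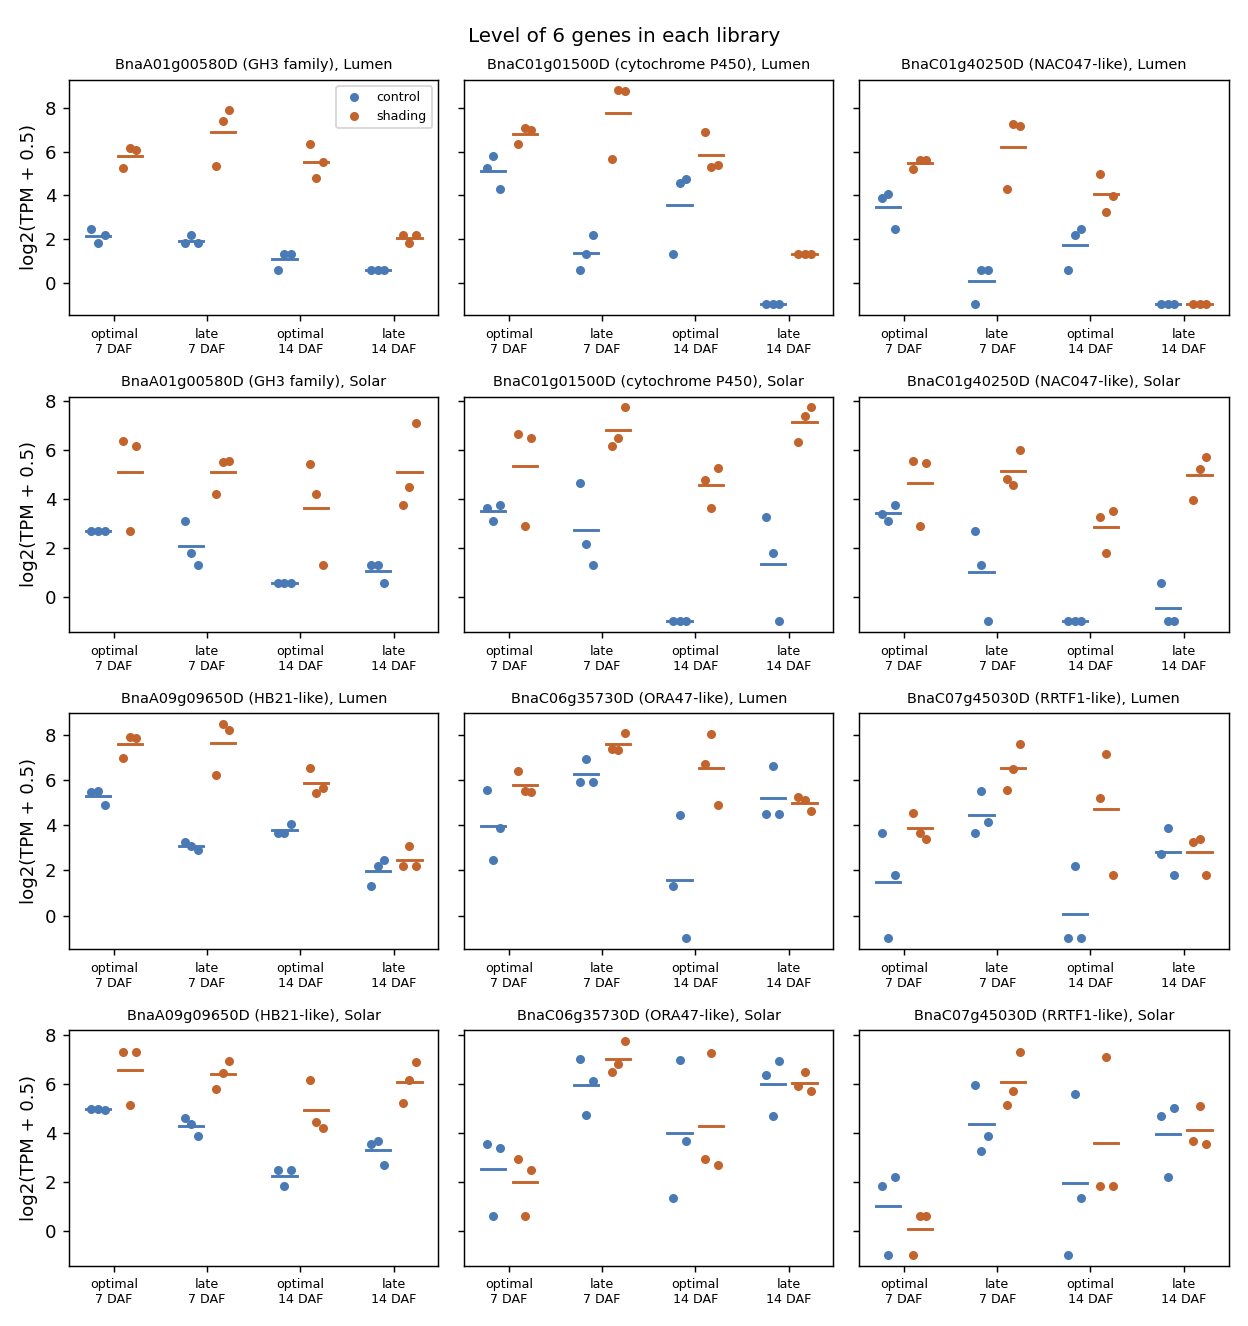
log2(TPM + 0.5) of 6 genes in each library (points) with group means (lines) by sowing date and time, for control and shaded plots, with the Lumen panel of each gene above its Solar panel. The GH3, P450, NAC047 and HB21 copies are higher in shaded Solar-labelled libraries (differences of 3.12, 4.32, 3.66 and 2.30), whereas the ORA47 and RRTF1 copies vary between libraries of a group (0.22 and 0.63, not past the threshold).

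The remaining annotated genes came from families with few members on the list. BnaC03g12900D, a C2H2 zinc finger corresponding to Arabidopsis ZFP2, held 1, 2 and 5 TPM in late-sown Lumen controls at 14 DAF and 3, 5 and 7 TPM under shading, and 8, 5 and 14 TPM against 18, 33 and 42 TPM in the matching Solar-labelled libraries. Its Solar difference was 1.45 ± 0.26 (limma adjusted p = 0.00042). BnaA10g21890D, a RING-type zinc finger protein, gave 1.07 ± 0.32 (adjusted p = 0.039), and BnaA01g01550D, a DnaJ-domain protein, 0.48 ± 0.22 (adjusted p = 0.21). Neither passed the threshold.

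BnaA04g08640D encodes a small subunit of Rubisco, the carbon-fixing enzyme of photosynthesis, and was among the most abundant of the list. At 14 DAF in the optimal sowing it held 165, 42 and 242 TPM in Lumen controls and 345, 375 and 179 TPM under shading, which overlapped. In Solar-labelled seeds of the optimal sowing at 7 DAF it held 26, 275 and 38 TPM in controls and 648, 256 and 686 TPM under shading, the values of 275 and 256 TPM being the closest pair. At 14 DAF in the late sowing the same label gave 23, 20 and 26 TPM against 24, 18 and 26 TPM. Over all Solar-labelled libraries it did not pass (0.79 ± 0.37, limma adjusted p = 0.23).

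Most of the abundant members have no annotation in the tables used. BnaCnng18480D had the highest mean level of all 200 genes, 265 TPM over the Lumen libraries. In Lumen at 7 DAF it measured 101, 251 and 65 TPM in optimal controls against 217, 318 and 402 TPM under shading, and 3, 9 and 26 TPM against 220, 1845 and 1928 TPM in the late sowing. At 14 DAF the late-sown libraries held 1, 0 and 0 TPM in control and 3, 3 and 8 TPM under shading. Solar-labelled late-sown libraries at 14 DAF held 36, 1 and 1 TPM against 182, 433 and 587 TPM. The Solar difference, 4.79 ± 0.55 (limma adjusted p = 8.1e-07), was the largest among the 200 genes, followed by those of BnaA08g23410D (4.47 ± 0.51), BnaA06g16650D (4.39 ± 0.70), BnaC01g01500D and BnaC02g02350D (4.31 ± 0.53).

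Of the other abundant genes, BnaC04g52910D, BnaA02g31500D and BnaA08g25420D passed the Solar test with differences of 2.90 ± 0.36, 2.97 ± 0.41 and 1.29 ± 0.20 (limma, highest adjusted p = 7.7e-05). The neighbours BnaC07g50430D and BnaC07g50440D did not, with 0.56 ± 0.36 and 0.69 ± 0.57. BnaC07g50440D held 5, 260 and 27 TPM in Solar-labelled optimal controls at 14 DAF and 22, 619 and 43 TPM under shading, the layout of the RRTF1 and ORA47 copies with replicate 2 high in both treatments. The 5 lowest Solar differences, in BnaC03g66140D, BnaA08g06880D, BnaA01g21090D, BnaA08g04060D and BnaA07g21980D, ran from -0.23 to -0.14 and did not pass.

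Counted over all 200 genes, 115 were higher and 0 lower under shading in Solar-labelled libraries of both times and sowing dates (limma, adjusted p under 0.01), where 2.04% of all 53810 genes tested were called higher and 0.730% lower. The median difference was 1.46 against 0 over all genes, and 188 of the 200 were positive. At an unadjusted p under 0.05, 141 were higher and 0 lower. The share of all genes past this unadjusted limit is not given, here or for the counts below. Without the closest pair 117 were higher. Leaving out single libraries gave 102 to 120, but leaving out replicate 3 of every group gave 10. All 200 genes had passed the filter on low values.

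By time, 18 of the 200 were higher at 7 DAF (0.212% of all genes, and 0.0483% lower) and 97 at 14 DAF (1.77%, and 1.80% lower). At either time 0 were lower with limma, and 0 at an unadjusted p under 0.05. The median differences were 1.28 and 1.66. The count at 14 DAF was 15 without replicate 2 and 8 without replicate 3 of every group. In the optimal sowing at 14 DAF, Solar markers made up 74.7%, 10.9% and 41.3% of the marker signal in control libraries and 99.7%, 68.1% and 99.6% in shaded ones, and the part of this in the count was not tested. The count at 7 DAF depended on the closest pair: without both libraries it was 65, and without shaded replicate 2 of the optimal sowing alone it was 85. Without replicate 1 or 3 of every group it was 4 and 0. It was 0 without shaded replicate 1 or 3 of the optimal sowing, 1 without late-sown control replicate 2, 2 without optimal control replicate 1, late-sown control replicate 3 or late-sown shaded replicate 3, 3 without optimal control replicate 3, 10 without optimal control replicate 2 or late-sown shaded replicate 2, and 0 with the Solar-labelled libraries alone in the fit. At 7 DAF BnaA08g23410D gave 3.67 ± 0.72 (limma adjusted p = 0.0082, or 0.0112 with a replicate block), BnaA07g28000D, the NAP copy, 2.75 ± 0.43 (adjusted p = 0.0016) and BnaA01g00580D 2.70 ± 0.56 (adjusted p = 0.011). Without the closest pair these differences were 4.15, 3.06 and 3.29, and BnaA01g00580D passed (adjusted p = 0.00027). At 14 DAF BnaCnng18480D gave the highest difference, 6.51 ± 0.78, and BnaC01g01500D gave 5.68 ± 0.67.

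The difference between both times was tested as an interaction in Solar-labelled libraries. It passed for 0 of the 200 genes with limma (0.182% of all genes in either direction), with 33 at an unadjusted p under 0.05. Without the closest pair, or without its control library alone, 1 gene passed. The higher count at 14 than at 7 DAF does not by itself show a difference in response.

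In each sowing date the Solar-labelled differences had medians of 0.72 (optimal, 7 DAF), 1.82 (late, 7 DAF), 1.48 (optimal, 14 DAF) and 1.75 (late, 14 DAF). Higher means under shading were found for 136, 199, 189 and 168 of the 200 genes, against 51.7%, 48.1%, 47.5% and 48.1% of all genes at this level, and without the closest pair the first count was 137 and its median 1.14. In all 4 combinations 122 genes were higher, 50 in 3, 26 in 2 and 2 in 1, for which the shares of all genes are not given. All 6 shaded exceeded all 6 control libraries in 3 genes at 7 DAF (0.123% of all genes at this level) and in 41 at 14 DAF (0.696%). Without the closest pair it was 91 at 7 DAF. With fewer libraries a separation is easier to reach for any gene, and the share of all genes in that setting is not given.

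The late-sown 14 DAF libraries, from which the genotype markers were taken, gave 50 genes higher and 0 lower (limma, 0.446% of all genes higher and 0.180% lower), with 121 higher and 0 lower at an unadjusted p under 0.05 and a median of 1.75. BnaC02g02350D differed most, from 2, 0 and 0 TPM in control to 63, 120 and 139 TPM under shading (6.90 ± 1.06, limma adjusted p = 0.00031). BnaC01g01500D gave 5.79 ± 0.95, the SUC5 copy BnaA07g23350D 4.10 ± 0.73 and BnaA01g00580D 4.04 ± 0.80. The count was 9 without shaded replicate 3, 14 without control replicate 2, 25 without shaded replicate 2, 1 without replicate 2 or without replicate 3 of every group, and 16 with Solar-labelled libraries alone in the fit.

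Set beside each other, the late-sown 14 DAF differences had a median of 0.58 in Lumen and 1.75 in Solar. The difference between these was not tested, since the Lumen values chose the genes. The levels over both treatments are given as a description too, since the level filter used the Lumen libraries and 122 of the 200 genes have a mean under 5 TPM in the late-sown 14 DAF ones, so that they passed it through other Lumen groups. In these 12 libraries 69 genes were past the limma threshold with a higher and 4 with a lower level in Solar than in Lumen, with a median of 1.21, and without replicate 3 of every group 28 were higher or lower. Of all genes tested 12.5% were called higher and 13.0% lower, and of those that passed the same level filter 13.4% and 17.4%. BnaA06g16650D, unannotated, was listed at 0 in all 6 Lumen libraries and held 30, 0 and 0 TPM in Solar controls and 79, 190 and 323 TPM in shaded Solar libraries, a difference of 5.19 ± 0.98 that rests on the constant of 0.5 TPM. BnaCnng18480D was higher by 4.42 ± 0.78, BnaC01g01500D by 4.09 ± 0.67, the NAC047 copy BnaC01g40250D by 3.25 ± 0.54 and the HB21 copy BnaA09g09650D by 2.46 ± 0.37. The Rubisco gene BnaA04g08640D was among the 4 that were lower (-2.16 ± 0.52). Reads were matched to a single reference, so that differences in sequence between hybrids and differences in level cannot be told apart here.

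The levels of the 200 genes in Lumen were also set side by side by time and sowing date. The level filter of the choice used these libraries: 67 of the 200 genes have a mean under 5 TPM at 14 DAF and passed through their level at 7 DAF, whereas 0 have one under 5 TPM at 7 DAF. The values are therefore a description. Averaged over treatments and sowing dates, 102 genes were past the limma threshold with a lower and 0 with a higher level at 14 than at 7 DAF, with a median of -1.32, and at an unadjusted p under 0.05 the counts were 132 and 0. Without replicate 3 of every group 53 were past it. Of all genes tested 11.1% were called lower and 10.8% higher, and of those that passed the same level filter 12.5% and 13.6%. The lowest differences were those of BnaA06g16650D (-3.70 ± 0.70), BnaCnng64280D (-3.57 ± 0.36) and BnaA08g23410D (-3.43 ± 0.51). BnaCnng64280D held 40, 27 and 40 TPM in optimal controls at 7 DAF and 0, 3 and 1 TPM at 14 DAF, with 77, 103 and 111 TPM against 41, 30 and 18 TPM under shading. Both treatments were lower at 14 DAF, without overlap. The NAC047 copy BnaC01g40250D gave -2.85 and the HB21 copy BnaA09g09650D -2.37 on the log2 scale. The highest difference, in BnaA04g09030D, was 0.38 ± 0.51. In these bulk samples, fewer cells of a type and less RNA per cell cannot be told apart.

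By sowing date in Lumen, 21 of the 200 genes have a mean under 5 TPM in the optimal and 9 in the late sowing, so that these passed the filter through the other sowing date. Averaged over treatments and times, 53 genes were past the limma threshold with a lower and 3 with a higher level in the late sowing, with a median of -0.51. Without replicate 1 of every group 27 were past it in either direction, and without replicate 3 it was 23. Of all genes tested 6.36% were called lower and 6.46% higher, and of those that passed the same level filter 7.76% and 9.21%. The lowest differences were -4.36 ± 0.70 in BnaA06g16650D, -3.46 ± 0.55 in BnaCnng18480D and -3.11 ± 0.49 in the P450 gene BnaA01g00520D. The NAC genes BnaC01g40250D and BnaA07g28000D were also lower, with differences of -2.61 ± 0.38 and -2.18 ± 0.30. In the other direction, BnaA01g21080D gave 2.20 ± 0.59 and BnaC05g51340D 1.52 ± 0.39. BnaA01g21080D held 8, 1 and 5 TPM in optimal and 6, 64 and 25 TPM in late-sown controls at 7 DAF, and 5, 30 and 0 TPM against 43, 42 and 35 TPM at 14 DAF. BnaA08g04060D and BnaA09g26390D gave 1.75 ± 0.65 and 1.69 ± 0.58, not past the threshold.

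The shading difference in Lumen was also compared between sowing dates, over which the choice had averaged, though the level filter used these libraries. Over both times the late minus optimal value had a median of -0.18 over the 200 genes. With limma 0 of them passed the threshold. An unadjusted p under 0.05 was found for 11, a limit that a share of about 0.05 passes when no gene differs. Of all 53810 genes tested, 0 were called higher and 1 lower. The comparison joins unlike times: shading differences had medians of 1.47 (optimal) and 2.62 (late) at 7 DAF, and 2.25 and 0.58 at 14 DAF. Opposite changes at both times cancel in it, so the lack of calls does not show that shading differences were alike between sowing dates. The comparison within each time was not tested. The widest values were 3.05 ± 1.10 in BnaCnng18480D, 2.34 ± 0.95 in BnaC01g01500D and -2.82 ± 1.19 in the ORA47 copy BnaC06g35730D, none past the threshold.

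The genes past the Solar threshold and those that were not differed in these other measures, as a description without a test. Of the 115 called genes, 107 were lower in the late sowing in Lumen by sign and 51 past the threshold, whereas of the 85 others 17 were lower by sign, 2 past the threshold, and 68 were higher by sign. Median sowing differences were -1.14 and 0.86. Median time differences were -1.85 and -0.69, with 91 and 11 genes past the threshold for a lower level at 14 DAF. The median standard deviation within groups of 3 libraries was 0.907 in the called genes and 1.10 in the others. The call divides by a spread estimated from the same groups, so a smaller value in called genes is partly set by the call. That spread also enters the time and sowing thresholds, so the counts past these are not independent of the call. At 14 DAF in the late sowing, the median Solar difference was 3.07 in the called genes, whose call used these libraries, and 0.21 in the others.

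**Figure D4:**
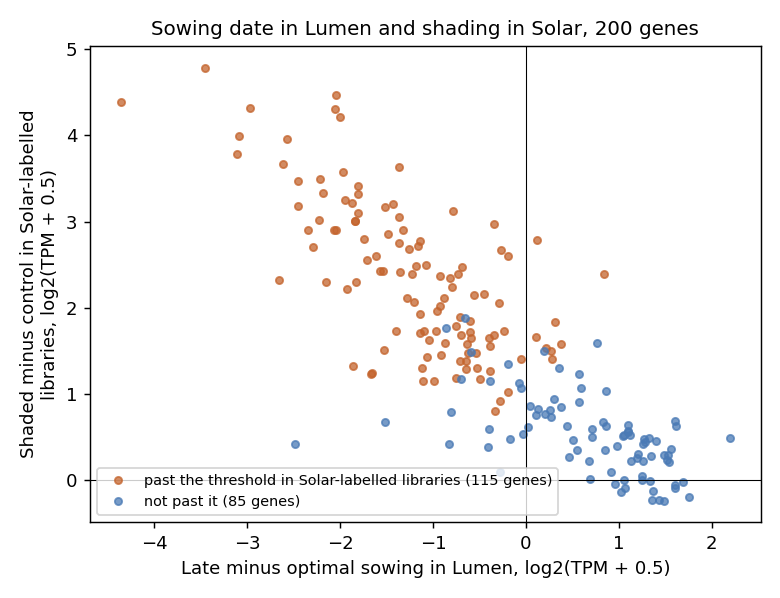
Shading difference in Solar-labelled libraries (vertical axis) against the late minus optimal sowing difference in Lumen (horizontal axis), both on the log2(TPM + 0.5) scale, for the 200 genes, with the 115 past the threshold under shading in orange and the 85 others in blue. The orange points lie mostly left of 0 (107 of 115) and the blue ones mostly right of it (68 of 85).

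By their identifiers 105 lie on the A and 95 on the C subgenome, 52.5% and 47.5% of the list against 46.8% and 52.9% of all genes at this level, and 20 are on unplaced sequence of a subgenome. Consecutive identifiers joined 17 of them into 9 pairs of neighbours, among them BnaA08g23400D with BnaA08g23410D and BnaC07g50430D with BnaC07g50440D. The values of BnaA05g11040D and BnaC04g12730D were identical in all libraries, so that these count as a single measurement. Of 38 annotated members, 36 have an Arabidopsis counterpart, and 13 of them are copies of 6 Arabidopsis genes. The shares of neighbours and copies over all genes were not computed. At least 1 Lumen control library was listed at 0 for 115 of the 200 genes, where the size of the differences rests on the constant of 0.5 TPM and on rounding.

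Families that the list does not hold were also counted among the 5098 genes with an annotation. It held no annotated member of the WRKY, MYB or bZIP families, heat shock factors, late embryogenesis abundant proteins, photosystem proteins, protein phosphatases 2C, protein kinases, cysteine or aspartic proteases, or of the lists for abscisic acid, shade and light signalling, sugar starvation and trehalose phosphate. These lists ran from 3 annotated genes for trehalose phosphate to 176 for protein kinases, with 14 WRKY, 57 MYB and 26 bZIP genes. Only 38 members carry an annotation, and whether such absences go beyond the small number of annotated members was not tested. For bZIP, NAC and homeobox genes the number of members depends on the choice too, since genes of these families were among those set aside. Senescence genes numbered 6, of which 4 were higher in Solar-labelled libraries, where 2.04% of all genes were. These include BnaA07g28000D and BnaC04g31690D, chosen here for their level under shading, and 2 of the other 4 genes are likewise annotated only through the table of transcription factors. Of the marker lists, 3 embryo, 3 seed coat and 3 silique wall genes were annotated and none was a member, while no endosperm marker was. The summed seed coat markers ran from 25 to 69 TPM in Lumen controls and from 20 to 83 TPM under shading, silique wall markers from 32 to 60 TPM and from 30 to 59 TPM, and embryo markers from 6 to 426 TPM and from 7 to 340 TPM. In Solar-labelled libraries these 9 genes gave 0 calls with limma, with 4 lower and 0 higher at an unadjusted p under 0.05 and medians of -0.18, 0.06 and -1.02 for seed coat, silique wall and embryo, and their part in the results was not tested.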

How the data were processed

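RNA-seq was made from pooled seeds in 48 libraries, 3 for each of 16 groups. Per the labels and methods, kallisto 0.46 was used to assign reads to 101040 rapeseed cDNAs. The authors normalized TPM between libraries with sleuth and deposited them as whole numbers, a score rather than counts or plain TPM. Rounding sets the precision of low genes, and depth per gene is unknown from these values. Replicates were not pooled.

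Values were transformed to log2(TPM + 0.5). The 53810 genes that reached 1 TPM in 47% or more of the libraries include all 200 members. They were fitted with limma 3.58.1 in R 4.3.3 on the 16 group means, with 32 residual degrees of freedom. A Benjamini-Hochberg adjustment was made over all genes tested in each of 9 comparisons, with a threshold of 0.01. A ± value is a standard error. The labels number the replicates but do not say which plot or block a number stands for, so the p-values measure the spread between these libraries. The study assigned sowing dates to main plots, shading to subplots and genotypes to plots within these, with seeds taken at both times. The fit has no term for this layout and treats the libraries as independent. Its p-values for sowing date and for shading over several groups may therefore be too small. The fit was tested on simulated data with 50 changed genes per size of change. A log2 change of 1 was recovered in 70% of them for Solar shading over both times. The share was 50% at 7 DAF, 48% at 14 DAF and 38% in the late sowing at 14 DAF. For a change of 2 the shares were 98%, 88%, 88% and 74%. A gene that did not pass may therefore still differ. The median standard deviation within groups was 0.988 in the 200 genes. Whether the shares above hold for genes with this spread was not tested. Python 3.11.15, pandas 2.3.3 and matplotlib 3.10.9 were used.

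Samples were grouped by their labels. The members and the gene lists were chosen with earlier results of these data known. Genes were named by rank: the highest by smaller difference, mean level and each comparison, the last and first at the limit, and up to 4 annotated members per list. Annotation came from the readable supplementary tables of the study, which cover 5098 genes that the study found regulated or co-expressed in these samples. Alternatives were other pseudocounts, filters, scalings and thresholds, the fit within a genotype, a replicate block, and leaving out replicates or the closest pair. No gene sequence was used here.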

Additional observations from a re-analysis of the deposited data

How the results depend on the processing

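Leaving out replicates gave 10 to 120 genes for shading in Solar-labelled libraries, 0 to 85 at 7 DAF, 8 to 99 at 14 DAF, 1 to 58 in the late sowing at 14 DAF, 0 to 1 for shading by time, 53 to 111 for time in Lumen, 23 to 62 for sowing date in Lumen and 28 to 82 for Solar against Lumen. Without replicate 3, which removes 1 library of every group, these were 10, 0, 8, 1, 0, 53, 23 and 28. At 7 DAF the count was 10 with a pseudocount of 0.1, 65 without the closest pair, 64 at an adjusted p under 0.05 and 0 within the genotype alone. In the late sowing at 14 DAF it was 76 at 0.05 and 16 within the genotype. Shading by time gave 1 gene at 0.05 and 1 without the closest pair, and sowing date 92 at 0.05.

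The deviations of same-numbered libraries correlated from -0.43 to 0.42 (median 0.0056, 360 pairs). Those of differently numbered libraries correlated from -0.46 to 0.44 (median -0.0017, 720 pairs). These values do not decide whether a number stands for a plot or block. A replicate block gave 114 genes for Solar shading, 13 at 7 DAF, 96 at 14 DAF, 48 in the late sowing at 14 DAF, 98 for time, 56 for sowing date and 74 for Solar against Lumen.

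Choosing the 200 genes again kept 143 to 156 of them without one replicate number, 186 with a pseudocount of 1, 198 and 199 under other scalings and 134 with a mean of at least 10 TPM. Rescaling to a common sum shifted the median of all genes by -0.12 for time in Lumen.

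Among single genes, a pseudocount of 1 turned the Solar shading difference of BnaA01g02720D to 0.01. Leaving out replicates turned the sign in 8 genes for Solar shading, over -0.70 to 0.31 in BnaA01g02720D, -0.48 to 0.0878 in BnaA07g21980D, -0.72 to 0.0436 in BnaA08g06880D, -0.73 to 0.24 in BnaC03g66140D, -0.51 to 0.0823 in BnaA01g21090D, -0.73 to 0.32 in BnaA08g04060D, -0.12 to 1.17 in BnaC07g45030D and -0.19 to 0.59 in BnaC06g35730D, and for time in Lumen in BnaA04g09030D (-0.0759 to 0.68). None of these 9 had passed the threshold. The block ended the calls of BnaCnng67070D (adjusted p = 0.0104 with limma) and of BnaA08g23410D at 7 DAF (adjusted p = 0.0112). Whole-number values limit all genes near 0.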
